A study of Mus musculus with 425 samples.

Results

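The genes described here are 10 components of the microRNA (miRNA) pathway: Dgcr8, Drosha, Xpo5, Dicer1, Tarbp2, Prkra, Ago1, Ago2, Ago3 and Ago4. They were chosen by gene symbol among the 23845 genes of the deposited expression tables, and each of the 10 has a row in every table. The mice carried floxed Dgcr8 alleles and a Cre transgene. Homozygous males, Dgcr8fl/fl with Stra8-iCre or with Defb41-iCre, are called cKO. Heterozygous siblings, Dgcr8+/fl with the same Cre, are called control, so that every control also carried 1 floxed allele and Cre. The Stra8 promoter is active in male germ cells and the Defb41 promoter in principal cells of the caput, the head of the epididymis, so that neither Cre line was made to delete Dgcr8 throughout the tissue sampled. The animals' ages were not in the labels.

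Expression was measured in epididymal tissue and in single embryos. The 30 tissue libraries came from the caput and the cauda, the tail in which mature sperm are stored. There were 3 cKO and 3 control caput libraries and 4 cKO and 4 control cauda libraries of the Stra8 line, and 4 cKO and 4 control libraries of each segment of the Defb41 line. The 313 single embryos, 151 of them 4-cell embryos and 162 morulae, were named for the genotype of the father, and their eggs were from FVB/NJ females. Testis sperm of the Stra8 line gave 22 cKO and 22 control 4-cell embryos and 21 cKO and 27 control morulae. Cauda sperm of the Stra8 line gave 15 cKO and 18 control 4-cell embryos and 22 cKO and 20 control morulae. Cauda sperm of the Defb41 line gave 3 groups at each stage. They were cKO embryos injected with miRNA purified from cauda epididymosomes (cKO + miRNA, 21 4-cell embryos and 22 morulae), cKO embryos injected with control RNA (23 and 24), and control embryos with no injection in their labels (30 and 26).

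A miRNA is cut from a long primary transcript in the nucleus by the Microprocessor, in which the double-stranded RNA binding protein DGCR8 holds the transcript for the RNase DROSHA. Exportin-5 (Xpo5) carries the resulting hairpin to the cytoplasm, where DICER1, helped by its partners TRBP (Tarbp2) and PACT (Prkra), cuts it to a duplex. An Argonaute protein (Ago1 to Ago4) takes up a strand of the duplex and guides it to target mRNAs, and of the mouse Argonautes AGO2 is the one known for cleaving fully paired targets. In the epididymis, miRNAs are made by the duct epithelium and also reach sperm in vesicles called epididymosomes, and in early mouse embryos miRNA activity is known to be low while endogenous siRNAs, which need DICER1 but not DGCR8, are made in the oocyte.

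The files give TPM, a relative level scaled for transcript length and for the total of the library, so that levels of different genes can be set side by side within a library. Read depth is not part of TPM and is therefore unknown. The number of genes at 1 TPM or more ranged between 10256 and 12513 in tissue libraries and between 5894 and 10921 in embryos. The caput and cauda libraries of the Stra8 line carried the marker genes of their segments: the summed TPM of 8 caput markers was 66440 to 83868 in the caput libraries, against 302 to 564 in the cauda libraries. In the Defb41 line the tissue labels were in doubt. All 8 libraries labelled cKO, of either segment, carried cauda markers (86460 to 111976 TPM for 5 genes) and lacked caput markers (370 to 946), while all 8 labelled control lacked cauda markers (431 to 858). Caput markers summed to 79193 to 110592 TPM in those labelled caput control and to 17276 to 38929 TPM in those labelled cauda control, so that the markers go against the segment label in the libraries labelled caput cKO and cauda control. In that line genotype and segment cannot be told apart, and its tissue libraries are named below by their labels only. Among embryos, all 9 of the Stra8 cauda sperm 4-cell embryos of 1 numbered set (4 cKO and 5 control) stood apart, with markers of a later stage, and are called the late-marker set. Separately, 7 pairs of Defb41 embryos were almost the same in their profiles (Pearson r of 0.988 to 0.994), and 1 of these pairs joined a cKO + control RNA morula and a control morula. No label says that libraries came from separate animals or that embryos came from separate fathers, so that p-values measure the spread between libraries only.

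In the epididymis, the helpers of Dicer1 and the exporter were the most abundant of the 10 mRNAs and the mRNAs of the Microprocessor, Dicer1 and the Argonautes were lower. Over the 30 libraries, Tarbp2 was measured at 18.9 to 68 TPM (median 33.2), Prkra at 11 to 45.7 TPM (median 18.2) and Xpo5 at 5.55 to 29.1 TPM (median 17.7). Ago1, Drosha and Dicer1 followed at medians of 5.78, 4.33 and 3.75 TPM, with ranges that overlapped widely. Dgcr8 had a median of 1.70 TPM and a range of 0.550 to 4.12 TPM.

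The Argonaute family was uneven. Ago1 had the highest level of the 4 genes in 30 of 30 tissue libraries and made up 84.9% to 89.3% of their summed TPM in the group medians. Ago4 ranged from 0 to 1.63 TPM, Ago2 from 0 to 0.610 TPM and Ago3 from 0 to 0.310 TPM. Control library 2 of the Stra8 caput listed Ago2, Ago3 and Ago4 at 0. This library stood apart, with 11887 genes listed at 0 against 6766 to 9852 in the other tissue libraries, and the fewest genes at 1 TPM or more (10256). These 3 genes did not reach 1 TPM in enough libraries to be tested in any tissue comparison, which leaves 7 of the 10 genes.

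**Figure D1:**
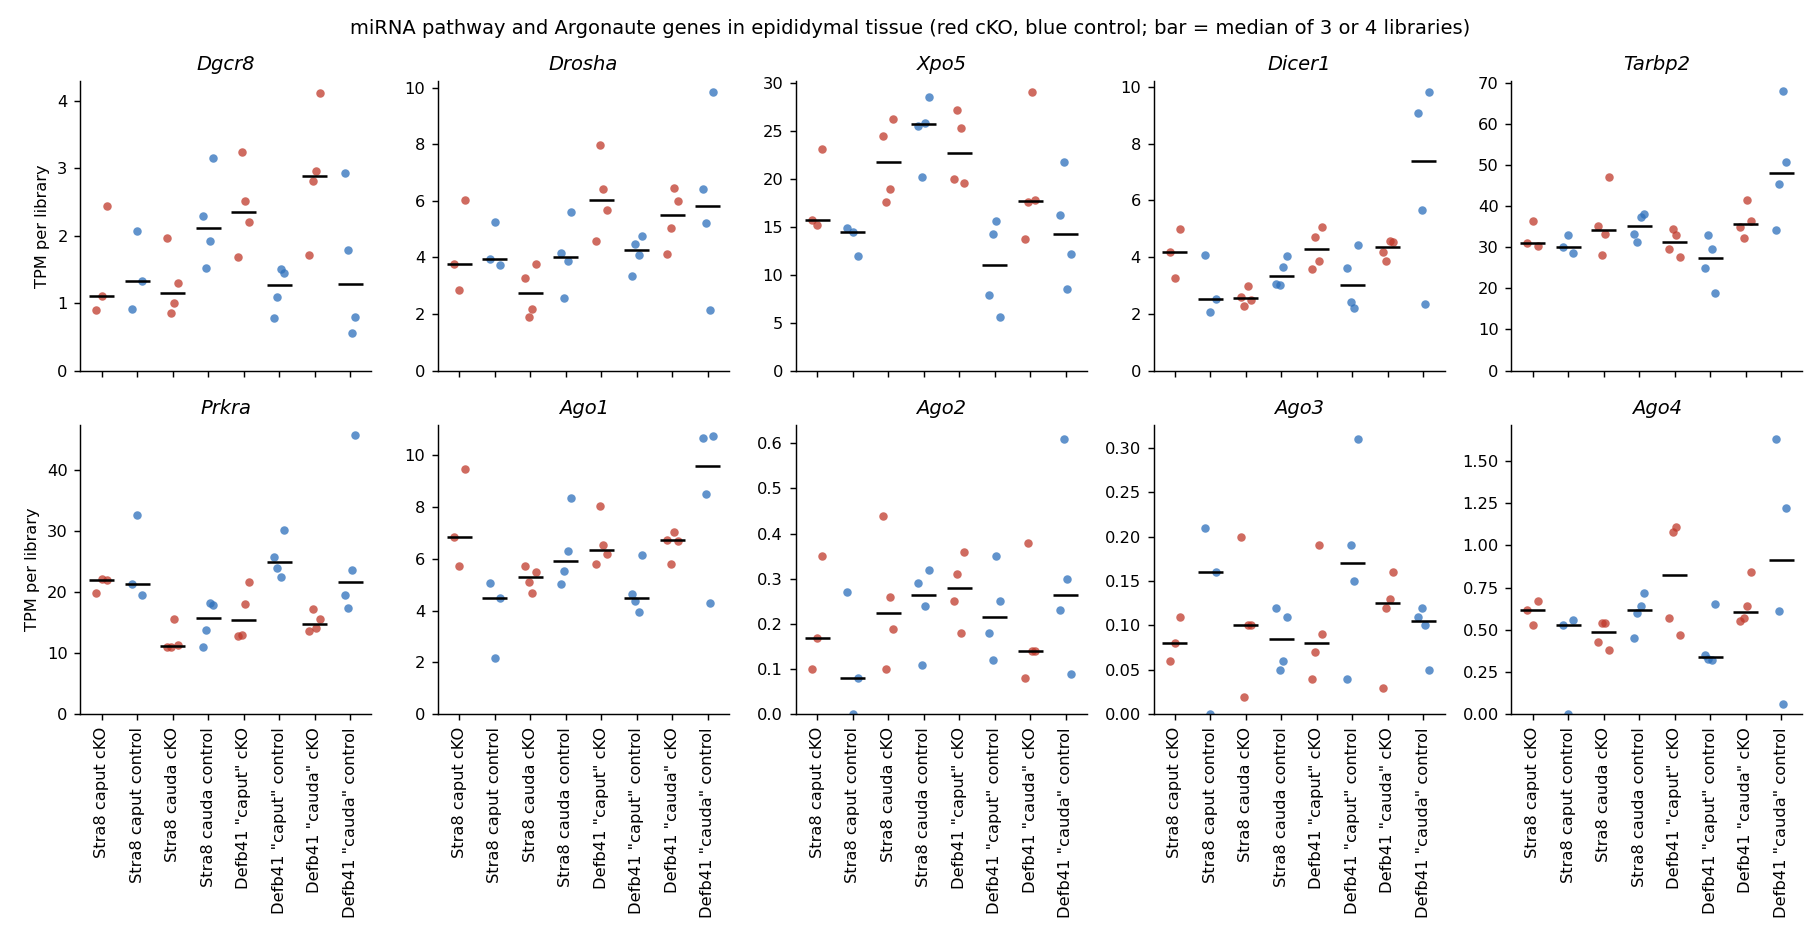
TPM of each of the 10 genes in every epididymal library, with cKO libraries in red to the left of control libraries in blue and the median as a bar; the vertical axes start at 0 and differ between genes. The 8 groups of the Defb41 and Stra8 lines overlap for most genes, and the segment labels of the Defb41 line stand in quotation marks because all its libraries labelled cKO, of either segment, carried cauda markers and all those labelled control lacked them.

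Dgcr8 itself, the floxed gene, did not differ detectably between Stra8 cKO and control tissue. In caput, its level was 0.9, 1.1 and 2.44 TPM in the 3 cKO libraries, against 0.910, 2.07 and 1.33 TPM in the 3 control libraries. The groups overlapped over nearly their whole range, and the log2 change was 0.00 (SE 0.33, limma on log2(TPM + 1), Benjamini-Hochberg adjusted p = 0.998 over 11776 genes). In cauda, its level was 1.97, 0.860, 1.0 and 1.30 TPM in the cKO libraries, against 2.29, 1.52, 1.93 and 3.16 TPM in the control libraries. The cKO libraries lay lower with 1 of them, at 1.97 TPM, among the controls, and the log2 change was -0.50 (SE 0.21, limma adjusted p = 0.385, unadjusted p = 0.0387). Each cKO cauda library lay below the control cauda library of the same number. The change in cauda lay between -0.77 and -0.37 over 14 alternatives, none of which called it. On the log2(TPM + 1) scale, a change at such low levels is understated. A level summed over a gene's transcripts does not separate the deleted part of Dgcr8, and in whole tissue fewer cells of a type and less RNA per cell cannot be told apart, so that these levels check neither the labels nor the deletion.

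None of the 7 tested genes passed an adjusted p of 0.05 between Stra8 cKO and control tissue. In caput, 0.824% of all genes tested were called by limma, and 1 of the 7 had an unadjusted p under 0.05. That gene was Ago1, at 6.83, 5.71 and 9.44 TPM in cKO caput against 5.06, 2.17 and 4.50 TPM in control caput. Every cKO library lay above every control library, with a log2 change of 0.79 and a limma adjusted p of 0.346. The lowest value is that of control library 2, without which the change was 0.50 (p = 0.0784, limma adjusted p = 0.544). Xpo5 was likewise higher in each cKO caput library (15.8, 15.2 and 23.2 TPM, against 14.9, 14.4 and 12 TPM in control) without being called. In cauda, 0% of genes were called by limma, with 1461 genes at an unadjusted p under 0.05. Dicer1, the RNase of the cytoplasmic step, was lower in each cKO cauda library, at 2.61, 2.27, 2.97 and 2.48 TPM against 3.06, 3.02, 3.64 and 4.05 TPM in control cauda. Its log2 change was -0.31 with a limma adjusted p of 0.427. The genes' median log2 change was 0.09 in caput and -0.28 in cauda, beside medians of 0.21 and -0.15 over all genes tested. Ago1, Xpo5 and Dicer1 were picked after their values were seen, and the share of all genes that likewise did not overlap was not counted.

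The same libraries differed in sperm RNA. The summed TPM of 5 spermatid and sperm markers (Prm1, Prm2, Tnp1, Tnp2 and Odf1, each at 1 TPM or more in some library of every group) was 2666 to 4166 in cKO caput, against 566 to 793 in control caput. In cauda it was 2467 to 8409 in cKO libraries, against 537 to 2696 in control libraries. Its part in the levels above was not tested. With the replicate number as a block, since same-numbered libraries deviated together in both segments, 322 genes were called in caput and 295 in cauda, none of them among the 10.

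Whether the genotype effect differed between caput and cauda was tested as an interaction over the 4 Stra8 groups. No gene was called among 12993 tested (3283 had an unadjusted p under 0.05). The largest differences of the 7 genes were those of Ago1, 1.0 on the log2 scale (SE 0.34, p = 0.00968, adjusted p = 0.102), and Dicer1, 0.73 (SE 0.29, p = 0.0236, adjusted p = 0.140), both by limma. Without caput control library 2 they were 0.71 (p = 0.0276, limma adjusted p = 0.206) and 0.57 (p = 0.0582, limma adjusted p = 0.275).

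Between the segments of the Stra8 line, 1 gene passed the test in each genotype, Prkra in cKO and Xpo5 in control males. The difference between the genotypes was not called for either (0.55, p = 0.0579, limma adjusted p = 0.213 for Xpo5, and 0.12, p = 0.687, limma adjusted p = 0.849 for Prkra). In control males, Xpo5 was lower in caput, at 14.9, 14.4 and 12 TPM, than in cauda, at 25.6, 20.3, 25.8 and 28.6 TPM. The groups did not overlap, and Xpo5 fell by 0.81 on the log2 scale (SE 0.18, limma adjusted p = 0.00455). Of all genes tested, 39.8% were called in this comparison, so that 1 of 7 is no larger a share than the background. In cKO males, the called gene was Prkra, whose product binds DICER1 and also activates the kinase PKR. Prkra was measured at 19.9, 22.3 and 22.1 TPM in cKO caput, against 11, 11.1, 15.6 and 11.5 TPM in cKO cauda. The groups did not overlap, and Prkra rose by 0.76 (SE 0.17, limma adjusted p = 0.00358), where 45.2% of all genes were called. This call rests on the scale of the libraries: with median-ratio scaling the median of all genes was 0.00 in place of 0.33, the change of Prkra was 0.40 (limma adjusted p = 0.119), and Xpo5 and Tarbp2 were called in its place. In controls Prkra changed by 0.64 (limma adjusted p = 0.0536), close to the threshold, and was called as a second gene without the cauda control library 4. Caput libraries also differed from cauda libraries in smooth muscle markers (626 to 1479 TPM for 5 genes, against 4026 to 5796 TPM), and the part of that tissue in these differences was not tested.

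In the Defb41 line, 3 of the 7 genes passed the test between the libraries labelled caput cKO and those labelled caput control, where 50.4% of all genes did. Xpo5 was measured at 20.1, 27.2, 25.4 and 19.6 TPM in the libraries labelled cKO, against 7.85, 14.2, 15.6 and 5.55 TPM in those labelled control. All 4 of the first lay above all 4 of the second, with a log2 change of 1.11 (SE 0.28, limma adjusted p = 0.00665). Dgcr8 was at 1.69, 3.24, 2.51 and 2.20 TPM in the libraries labelled cKO, against 0.780, 1.09, 1.5 and 1.45 TPM in those labelled control. The gene named as deleted was thus higher in every library labelled cKO, by 0.62 (SE 0.19, limma adjusted p = 0.0196). Prkra went the other way, with 12.8, 13, 18.1 and 21.8 TPM in the libraries labelled cKO, against 25.9, 24, 22.6 and 30.3 TPM in those labelled control. Its log2 change was -0.64 (SE 0.20, limma adjusted p = 0.0184), again with no overlap. Xpo5 was called without any 1 of the 8 libraries. Dgcr8 was not called without cKO library 2 (0.51, adjusted p = 0.0631) or control library 1 (0.52, adjusted p = 0.0641), nor Prkra without cKO library 1 (-0.54, adjusted p = 0.0555) or 2 (-0.55, adjusted p = 0.0631). Without control library 4, 6 genes were called, and the share of all genes called in that fit is not given here.

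The segment differences of the 3 genes in the Stra8 line, as caput over cauda, were mixed in their calls. Xpo5 changed by -0.27 in cKO (not called) and by -0.81 in control males (called), Dgcr8 by 0.09 and -0.41 (neither called), and Prkra by 0.76 (called) and 0.64 (not called). In the libraries labelled Defb41 caput, smooth muscle markers summed to 5038 to 6626 TPM in those labelled cKO, against 514 to 750 TPM in those labelled control, and sperm markers to 1165 to 1589 TPM against 262 to 399 TPM. Genotype, segment and these other cells cannot be told apart here.

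Between the libraries labelled Defb41 cauda cKO and control, 0 of the 7 genes were called by limma at a background of 25.7%. Dgcr8 was at 1.71, 2.82, 2.97 and 4.12 TPM in the libraries labelled cKO, against 2.94, 1.79, 0.550 and 0.790 TPM in those labelled control. The ranges overlapped, with 2 control libraries above the lowest cKO library, and the log2 change was 0.70 (SE 0.34, limma adjusted p = 0.169). Prkra was lower in every library labelled cKO, at 13.6, 17.3, 14.1 and 15.6 TPM against 19.6, 17.4, 23.8 and 45.7 TPM, with a limma adjusted p of 0.123. Without control library 3, Dicer1 was called.

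Within the libraries labelled Defb41 control, 0 of 7 genes differed by limma between the segment labels, at a background of 13.5%. The nearest was Tarbp2, a stabilising partner of DICER1, at 25.1, 33, 29.6 and 18.9 TPM in libraries labelled caput, against 34.3, 45.3, 68 and 50.7 TPM in those labelled cauda. The groups did not overlap and the log2 change was -0.86 (limma adjusted p = 0.0585). With the replicate number as a block, Tarbp2 was called, as 1 of 2474 genes against 1574 without the block. It was also called without the cauda control library 1, and Dicer1 and Ago1 were called without the cauda control library 3. Within the libraries labelled cKO, 0 of 7 genes were called at a background of 0.279%.

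Other genes of the pathway were called between segments of the Stra8 line. Of 5 lists (nuclear cofactors, export and loading, silencing effectors, miRNA turnover, germline small RNA genes), no gene was called by limma between Stra8 cKO and control tissue of either segment. Between control caput and cauda, the RNA helicase gene Mov10 rose by 1.17 (12.5 against 4.89 TPM in the medians) and the exoribonuclease gene Dis3l2, which degrades uridylated pre-let-7, fell by 1.11 (11.7 against 24.7 TPM). Henmt1, the methyltransferase gene for piRNA ends, rose by 1.61 (1.93 against 0.0950 TPM). In cKO males the 3 genes moved alike between caput and cauda, by 1.34, -1.06 and 1.32. Of 8 nuclear cofactors, 3 rose and 1 fell in cKO males, and 1 rose and 3 fell in control males, shares near those over all genes (45.2% called in cKO and 39.8% in control males). Their median log2 change was 0.39 in cKO and -0.52 in control males, beside 0.33 and -0.11 over all genes.

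Among the libraries labelled Defb41 caput, where 50.4% of all genes were called, the comparison by label called 6 of 8 cofactors, 3 of 7 export and loading genes and 5 of 11 silencing effectors as higher in those labelled cKO, with list medians of 0.72, 0.49 and 0.56 beside 0.24 over all genes. Srrt, which binds the Microprocessor and the cap complex, was at a median of 70.1 TPM against 27.2 TPM (1.32, limma adjusted p = 9.02e-06). Mov10 (-1.21, 3.97 against 11.3 TPM) was lower, and Henmt1 was at medians of 0 and 2.38 TPM.

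Embryos differed from the epididymis in which members led. Tarbp2 was again the most abundant, at medians of 152 TPM in morulae and 120 TPM in 4-cell embryos. Xpo5 (medians 23.9 and 13.3 TPM), Ago2 (24.5 and 14.6 TPM) and Dgcr8 (12 and 11.9 TPM) were next in morulae, and in 4-cell embryos Ago4 stood beside them (4.62 and 14.4 TPM). Drosha was at 6.21 and 7.61 TPM. Ago1, the leading Argonaute of the epididymis, was at medians of 0.635 and 0.860 TPM, while Ago3 was at 0.930 and 1.58 TPM. The levels of tissue and embryos were deposited separately and came from different kits, so that they are given side by side without a test.

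**Figure D2:**
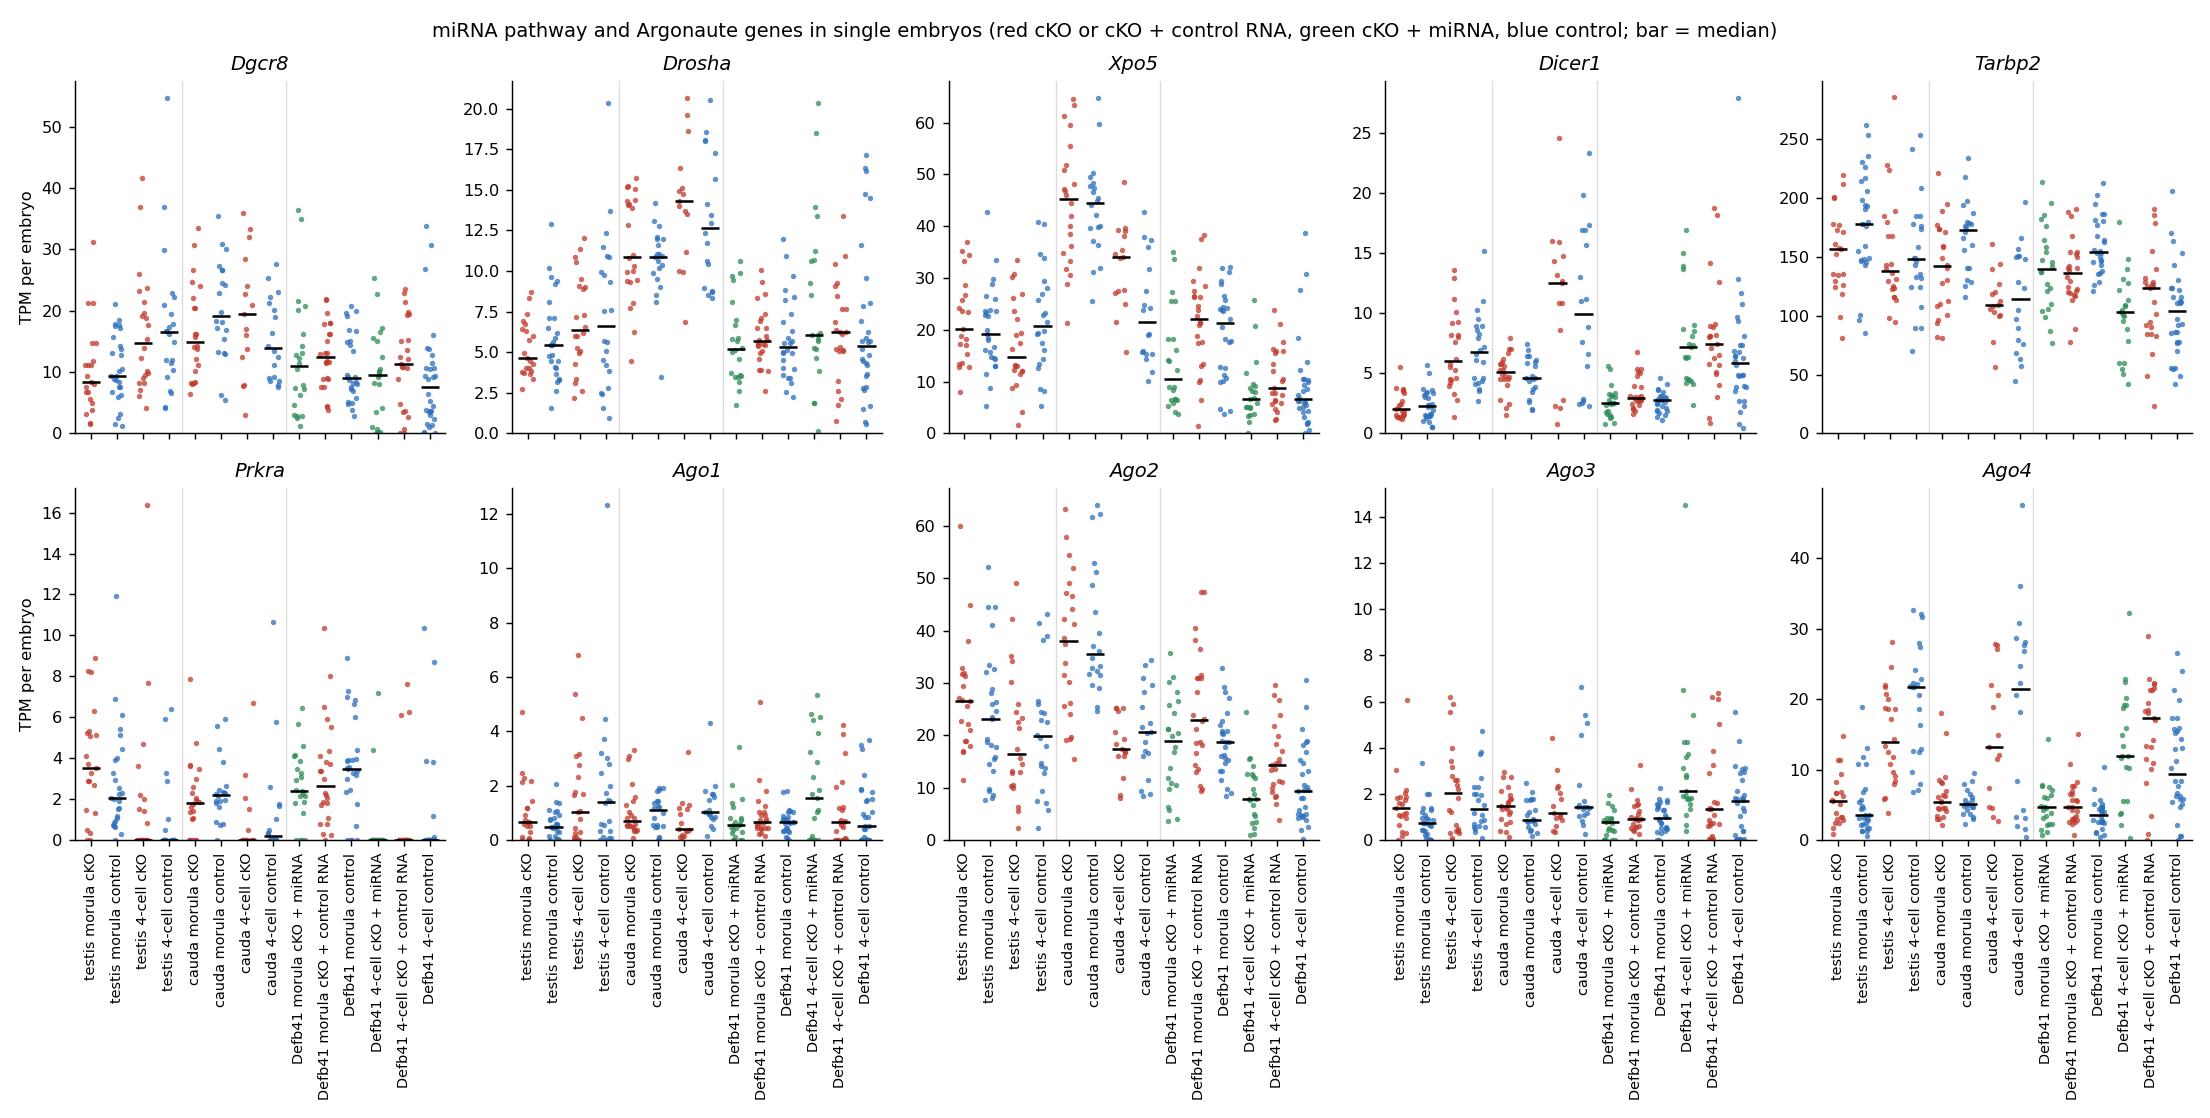
TPM of each of the 10 genes in every one of the 313 embryos, grouped by sperm source, stage and paternal genotype, with the group median as a bar; morulae stand left of 4-cell embryos and cKO left of control. Dicer1 and Ago4 are lower, and Prkra higher, in morulae than in 4-cell embryos from each sperm source, while embryos of cKO and control fathers overlap throughout.

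Paternal genotype or injection gave no call among the 10 genes in any of 10 comparisons of embryos at a single stage. The background was 0.0184% of genes in testis sperm 4-cell embryos, 0.197% in testis sperm morulae and 0% in both stages of Stra8 cauda sperm embryos and in all 3 comparisons of Defb41 4-cell embryos. In Defb41 morulae it was 0.389% for cKO + control RNA over control, 0.0997% for cKO + miRNA over control and 0.0814% for cKO + miRNA over cKO + control RNA. At an unadjusted p under 0.05, limma gave between 0 and 3 of the 10 genes per comparison, and between 281 and 1830 of all genes. Prkra was too low to be tested in the 3 comparisons of Defb41 4-cell embryos, and Ago1 in cKO + miRNA over control morulae.

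Dgcr8, for which these fathers were conditional mutants, overlapped widely between embryos of the paternal genotypes. In testis sperm 4-cell embryos its lowest, median and highest levels were 4.11, 14.7 and 41.7 TPM for cKO fathers, against 4.12, 16.5 and 54.7 TPM for control fathers. The log2 change was -0.05 (SE 0.25, limma adjusted p = 0.984). In testis sperm morulae they were 1.47, 8.44 and 31.2 TPM for cKO fathers, against 1.17, 9.33 and 21.1 TPM for control fathers. The ranges overlapped over most of their length, and the log2 change was -0.11 (SE 0.26, limma adjusted p = 0.907).

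In Stra8 cauda sperm 4-cell embryos, Dgcr8 was at 3.01, 19.4 and 36 TPM for cKO fathers, against 7.63, 13.8 and 27.6 TPM for control fathers. Both groups held low and high embryos, and the log2 change was 0.24 (SE 0.26, limma adjusted p = 1.0). In cauda sperm morulae the levels were 6.41, 14.9 and 33.4 TPM against 5.45, 19.1 and 35.4 TPM, with a change of -0.28 (SE 0.19, limma adjusted p = 0.778). In the Defb41 line the medians of Dgcr8 were 11, 12.4 and 8.98 TPM in cKO + miRNA, cKO + control RNA and control morulae, and 9.50, 11.3 and 7.62 TPM in the same groups of 4-cell embryos.

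The nearest to a call was Tarbp2 in Defb41 morulae. Its lowest, median and highest levels were 77.5, 136 and 191 TPM in cKO + control RNA embryos, against 121, 154 and 212 TPM in control embryos. The cKO + control RNA embryos lay lower but overlapped the controls, with a log2 change of -0.23 (SE 0.08, limma adjusted p = 0.131). In cKO + miRNA morulae Tarbp2 was at 76.3, 140 and 213 TPM, and its change against control was -0.21 (SE 0.09, limma adjusted p = 0.224).

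The 2 injected groups were set against each other directly. In 4-cell embryos, Ago2 was at 0.910, 7.94 and 24.4 TPM in cKO + miRNA embryos, against 3.80, 14.3 and 29.5 TPM in cKO + control RNA embryos. Values overlapped over most of the range, and the change of -0.86 (SE 0.27, p = 0.00253) had a limma adjusted p of 0.566. In morulae, Xpo5 had a median of 10.6 TPM in cKO + miRNA embryos, against 22.1 TPM in cKO + control RNA embryos, and 21.3 TPM in control embryos. Its change between the injected groups was -0.66 (SE 0.26, p = 0.0133, limma adjusted p = 0.403). The genes of the 5 lists also gave no call between paternal genotypes or injections. The difference of the genotype or injection effect between morulae and 4-cell embryos was tested as an interaction in 4 designs, and limma called none of the 10 genes in them. The unadjusted limma p was under 0.05 for Ago3 in the cKO + miRNA design (-0.93, p = 0.00107, adjusted p = 0.354). It was also under 0.05 for Xpo5 in the Stra8 cauda sperm design (-0.51, p = 0.0161) and Ago4 in the testis sperm design. Without the late-marker set the difference of Xpo5 was -0.42 (limma p = 0.0504). With all embryos, 709 of 10818, 429 of 11479 and 895 of 11258 genes had such a p in these designs, in the same order. In the cKO + control RNA design 1137 of 10924 genes did. The named genes were picked after their values were seen.

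The change between stages was the clearest difference of these genes. Marker genes followed the stage labels outside the late-marker set: 7 markers of the morula summed to 1304 to 5039 TPM in morulae, against 115 to 1140 TPM in 4-cell embryos, and 5 oocyte transcripts to group medians of 17.2 to 34.4 TPM in morulae, against 133 to 248 TPM in 4-cell embryos. Stage was compared in 7 groups of embryos, 3 of control fathers and 4 of cKO fathers, and between 5 and 7 of the 10 genes were called in each. The background was also high. In controls, 61% of all genes were called for testis sperm, 45% for Stra8 cauda sperm and 70.6% for the Defb41 line, where 6, 7 and 7 of the 10 genes were called. For cKO fathers, 55.7% and 42.2% of genes were called for testis and cauda sperm with 5 of the 10 genes each. They were 64.1% with 6 genes for cKO + control RNA and 58.0% with 7 genes for cKO + miRNA. The shares of the 10 genes thus lay near the background of each comparison, and it is their directions that are described here. For every gene named, single embryos of the 2 stages overlapped. In Stra8 cauda sperm embryos the numbered sets of the 2 stages carry different names, so that stage and set cannot be told apart in that source.

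**Figure D3:**
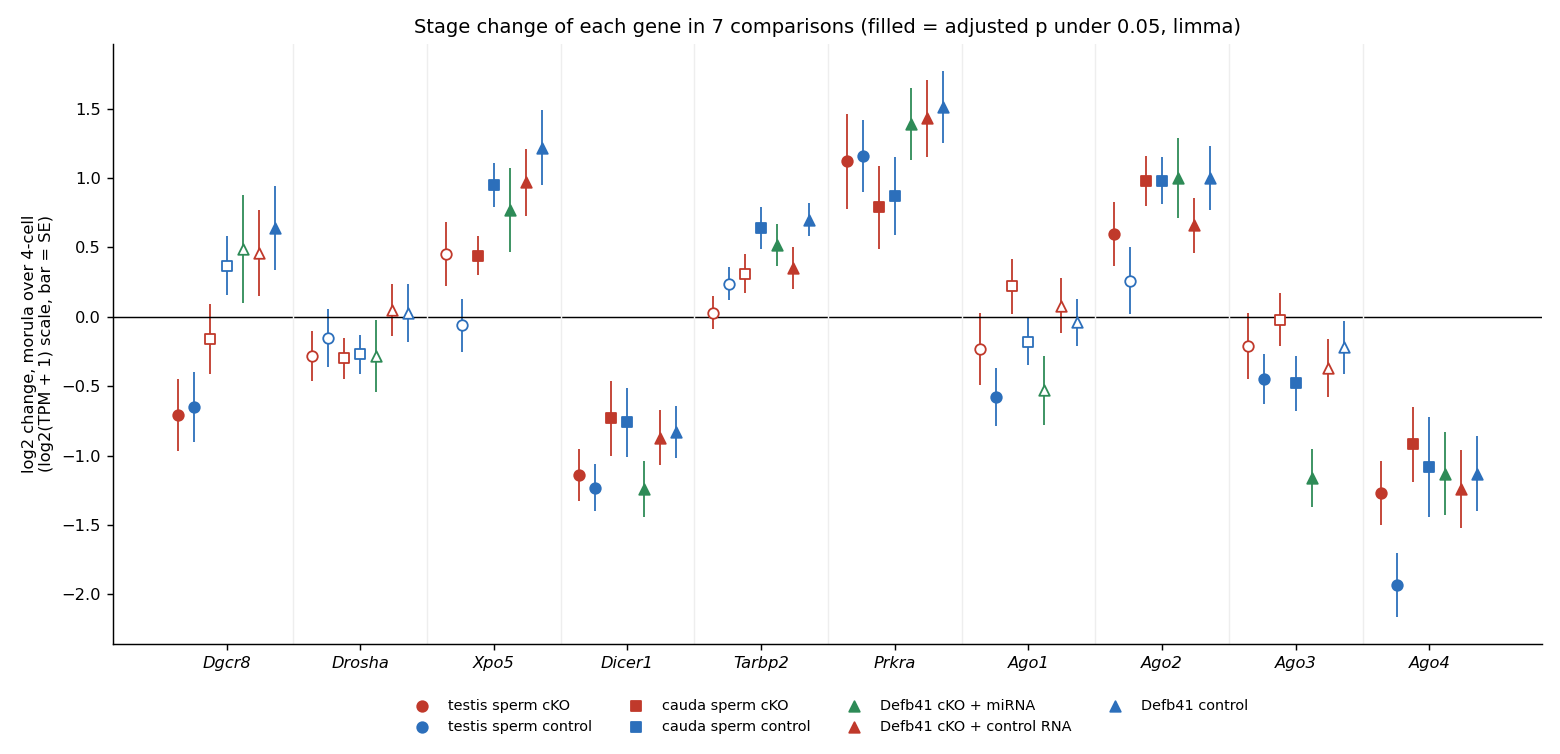
Log2 change of each gene in morulae over 4-cell embryos on the log2(TPM + 1) scale, with its standard error, in 7 comparisons marked by sperm source (shape) and paternal genotype or injection (colour); filled symbols had a limma adjusted p under 0.05. Dicer1 and Ago4 lie below 0 and Prkra above 0, filled, in all 7 comparisons, and Drosha is open in all 7, where all embryos are included.

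Dicer1 fell in morulae in all 7 comparisons, as did Ago4, while Prkra rose in all 7. The regions upstream of the genes are shown for Dicer1 and Ago4, which fell together, for Prkra, which rose, and for the floxed gene Dgcr8. Each is the 250 bases before the outermost start that RefSeq gives the gene in the mouse build GRCm38.p6, read 5′ to 3′ along the gene's strand, and holds no base of a RefSeq exon. Every match to GGGCGG (the GC box) or CCAAT on either strand is in capitals:
Dicer1, chr12:104751969-104752218, minus strand: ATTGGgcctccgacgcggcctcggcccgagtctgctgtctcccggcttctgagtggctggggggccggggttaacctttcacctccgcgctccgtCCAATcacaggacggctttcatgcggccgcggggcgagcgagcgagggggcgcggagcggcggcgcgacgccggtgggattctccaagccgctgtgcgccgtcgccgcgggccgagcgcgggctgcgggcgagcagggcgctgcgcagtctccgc
Ago4, chr4:126533587-126533836, minus strand: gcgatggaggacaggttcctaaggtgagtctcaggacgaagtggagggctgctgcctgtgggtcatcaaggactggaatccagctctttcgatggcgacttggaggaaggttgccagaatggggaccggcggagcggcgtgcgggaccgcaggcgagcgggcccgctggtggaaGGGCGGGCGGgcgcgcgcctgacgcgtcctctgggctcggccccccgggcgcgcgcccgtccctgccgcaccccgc
Prkra, chr2:76648221-76648470, minus strand: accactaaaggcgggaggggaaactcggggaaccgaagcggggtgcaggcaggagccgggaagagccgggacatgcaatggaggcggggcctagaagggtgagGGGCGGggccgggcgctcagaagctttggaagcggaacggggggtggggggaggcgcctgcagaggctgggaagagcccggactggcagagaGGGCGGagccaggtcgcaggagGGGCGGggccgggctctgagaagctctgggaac
Dgcr8, chr16:18289252-18289501, minus strand: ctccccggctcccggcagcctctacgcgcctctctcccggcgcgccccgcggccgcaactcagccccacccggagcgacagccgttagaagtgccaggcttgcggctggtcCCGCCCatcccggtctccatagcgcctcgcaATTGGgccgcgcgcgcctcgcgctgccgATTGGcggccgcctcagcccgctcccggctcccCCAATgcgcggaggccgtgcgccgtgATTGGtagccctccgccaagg
The Prkra window held 3 GC boxes and the Ago4 window 2, and neither held CCAAT. The Dicer1 window held 2 CCAAT and no GC box, and that of Dgcr8 4 CCAAT and 1 GC box. None of the 4 held the letters TATAA. Of such windows of the same length before 21778 protein-coding mouse genes, 35.6% held the GC box, 35.2% CCAAT and 23.4% TATAA. The GC content of the 4 windows was 70.4% to 74.8%, against a median of 52.4% over all windows. These matches are letters in a window and were not compared with the changes in level.

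For Dicer1, the lowest, median and highest levels in control embryos of testis sperm were 0.530, 2.27 and 5.65 TPM in morulae, against 2.68, 6.77 and 15.2 TPM in 4-cell embryos. The highest morula stayed below the median of the 4-cell embryos. Dicer1 fell by 1.23 on the log2 scale (SE 0.17, limma adjusted p = 1.64e-08). In Defb41 controls it was at 1.08, 2.75 and 4.58 TPM in morulae, against 0.450, 5.88 and 27.9 TPM in 4-cell embryos, a wider spread at the earlier stage. The change was -0.83 (SE 0.19, limma adjusted p = 0.000132). In embryos of cKO fathers the change was -1.14 (SE 0.19) for testis sperm, -0.87 (SE 0.20) for cKO + control RNA and -1.24 (SE 0.20) for cKO + miRNA.

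Ago4, an Argonaute without cleaving activity in mammals, had the largest fall of the family in 6 of the 7 comparisons, cKO + miRNA embryos being the exception (-1.13, against -1.16 for Ago3). In testis sperm controls it was at 0.530, 3.52 and 18.8 TPM in morulae, against 6.85, 21.7 and 32.7 TPM in 4-cell embryos. Most morulae lay below the lowest 4-cell embryo, and Ago4 fell by 1.93 (SE 0.23, limma adjusted p = 4.42e-10). In testis sperm embryos of cKO fathers it was at 0.830, 5.53 and 14.8 TPM in morulae, against 3.86, 13.9 and 28 TPM in 4-cell embryos. There it fell by 1.27 (SE 0.23, limma adjusted p = 9.76e-06). The difference between these falls, 0.66 on the log2 scale, had an unadjusted p of 0.0471 and a limma adjusted p of 0.622. In the Defb41 groups the changes were -1.13 (SE 0.30) for cKO + miRNA, -1.24 (SE 0.28) for cKO + control RNA and -1.13 (SE 0.27) for control.

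Prkra was listed at 0 in most 4-cell embryos. It was at 0 in 18 of 162 morulae (11.1%), against 111 of 151 4-cell embryos (73.5%). Of 8 reference genes that every cell uses, Polr2a was at 0 in 1 morula and Polr2a and Gapdh in 2 of the 151 4-cell embryos each. Their medians in 4-cell embryos were 6.17 to 4273 TPM, so that they cannot show how often a gene as low as Prkra is missed. Ago1, at a median of 0.860 TPM, was at 0 in 26 of the 151 4-cell embryos (17.2%). Whether a 0 of Prkra is absence or a missed transcript was not tested. In Defb41 controls the lowest, median and highest levels of Prkra were 0, 3.49 and 8.92 TPM in morulae, against 0, 0 and 10.4 TPM in 4-cell embryos. Prkra rose by 1.51 on the log2(TPM + 1) scale (SE 0.26, limma adjusted p = 1.04e-06), and by between 0.79 and 1.43 in the other 6 comparisons. A change on this scale understates that of a gene near 0.

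Ago2, the slicing Argonaute, rose in 6 of the 7 comparisons. In Defb41 controls it was at 8.43, 18.8 and 32.9 TPM in morulae, against 0.25, 9.40 and 30.7 TPM in 4-cell embryos. The upper ends met while the low 4-cell embryos had no counterpart among the morulae, and the change was 1.0 (SE 0.23, limma adjusted p = 9.38e-05). In the testis sperm controls, where it was not called, Ago2 was at 7.68, 23.1 and 52.2 TPM in morulae, against 2.39, 19.8 and 43.2 TPM in 4-cell embryos (0.26, SE 0.24, limma adjusted p = 0.351).

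With Ago2 higher and Ago4 lower, the makeup of the Argonaute mRNAs differed between stages. In the 7 morula groups Ago2 made up 74.1% to 85.1% of the summed TPM of the 4 genes in the group medians and Ago4 11.1% to 18.8%. In the 7 groups of 4-cell embryos Ago2 made up 32.9% to 53.9% and Ago4 38.4% to 47.3%. Ago2 had the highest level of the 4 in 161 of 162 morulae, against 76 of 151 4-cell embryos, in 70 of which Ago4 led. Shares in a sum move together, so that the rise of one and the fall of the other are not separate observations.

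**Figure D4:**
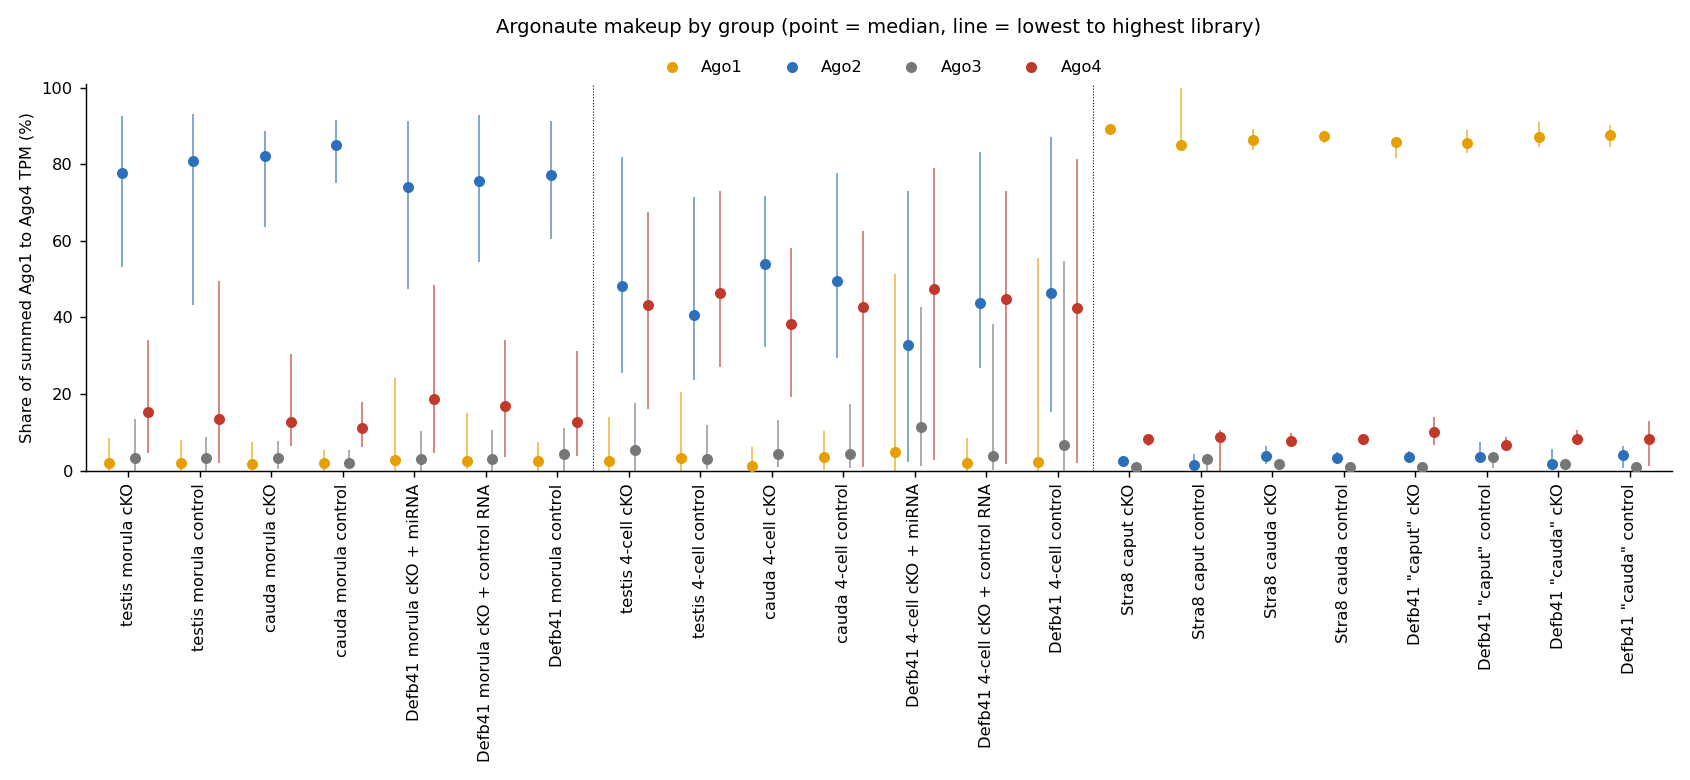
Share of each Argonaute gene in the summed TPM of Ago1 to Ago4, as the group median with a line from the lowest to the highest library, for 7 groups of morulae, 7 of 4-cell embryos and 8 of epididymal tissue from left to right. Ago2 leads in morulae and Ago1 leads in every tissue library. In 4-cell embryos, the late-marker set included, group medians are 32.9% to 53.9% for Ago2 and 38.4% to 47.3% for Ago4. Which of these genes is higher differs between groups of 4-cell embryos.

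Xpo5 and Tarbp2 were called as higher in some groups of embryos and not in others. The all-gene median change also differed, at 0.46 in Defb41 controls and -0.02 in testis sperm controls. For Xpo5, the levels in Defb41 controls were 3.67, 21.3 and 32 TPM in morulae, against 0.0600, 6.55 and 38.6 TPM in 4-cell embryos (1.22, SE 0.27, limma adjusted p = 7.69e-05). In testis sperm controls they were 5.30, 19.1 and 42.7 TPM in morulae, against 5.21, 20.6 and 40.9 TPM in 4-cell embryos. Those ranges were nearly the same, with a change of -0.06 (SE 0.19, limma adjusted p = 0.789). Tarbp2 rose in Defb41 controls by 0.70 (SE 0.12, limma adjusted p = 6.45e-07), with 121, 154 and 212 TPM in morulae, against 42.2, 104 and 206 TPM in 4-cell embryos. In testis sperm controls its change was 0.24 (SE 0.12, limma adjusted p = 0.0892). The Tarbp2 changes of these sources thus differ no more than the all-gene medians do. In Stra8 cauda sperm embryos Tarbp2 was called for control fathers (0.64) and not for cKO fathers. The levels of these sources were deposited separately, and the difference between them was not tested.

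Dgcr8 was called in opposite directions. It fell in testis sperm embryos, by 0.71 for cKO fathers (SE 0.26, limma adjusted p = 0.0211) and by 0.65 for control fathers (SE 0.25, limma adjusted p = 0.0214). In Defb41 controls it rose by 0.64 (SE 0.30, limma adjusted p = 0.0490), a call that 5 of 7 alternatives did not keep. The other 4 comparisons gave changes between -0.16 and 0.49 that were not called. Drosha, its partner in the Microprocessor, was called in none of the 7, with changes between -0.30 and 0.05, but fell in both Stra8 cauda sperm comparisons without the late-marker set.

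Ago3 and Ago1 had the lowest levels of the family, with embryo group medians between 0.410 and 2.14 TPM. Ago3 fell in testis sperm controls (-0.45, SE 0.18, limma adjusted p = 0.0246), in Stra8 cauda sperm controls (-0.48, limma adjusted p = 0.0487) and in cKO + miRNA embryos. In the last of these it was at 0, 0.770 and 1.94 TPM in morulae, against 0.390, 2.14 and 14.5 TPM in 4-cell embryos (-1.16, SE 0.21, limma adjusted p = 9.82e-06). Ago1 was called in testis sperm controls only, of the 7 comparisons (-0.58, SE 0.21, limma adjusted p = 0.0162). The calls in controls were near the threshold: that of Ago1 and that of Ago3 for Stra8 cauda sperm were lost with a pseudocount of 0.1 (adjusted p = 0.076 and 0.064), and that of Ago3 for testis sperm with median-ratio scaling (adjusted p = 0.0515).

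The late-marker set of the Stra8 cauda sperm 4-cell embryos bears on the stage comparison of that source. Its morula markers summed to 10360 to 15046 TPM in 4 cKO embryos and 10126 to 14684 TPM in 5 control embryos, above the 1619 to 3728 TPM of the morulae themselves. In the other 4-cell embryos of this source they summed to 241 to 830 TPM for cKO fathers and 226 to 675 TPM for control fathers. Its oocyte transcripts summed to 0.840 to 14.8 TPM, against 57.2 to 695 TPM in the others.

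The miRNA pathway genes of the late-marker set also differed from those of the other 4-cell embryos. Dicer1 had medians of 2.22 TPM (cKO) and 2.52 TPM (control) in the late-marker set, against 13.2 and 13 TPM in the other sets, and no embryo of the set reached the lowest of the others. Ago4 had medians of 3.95 and 3.13 TPM in the late-marker set, against 18.9 and 26.8 TPM in the others. Ago2 was also lower, at 10.2 and 9.47 TPM against 19.3 and 22.3 TPM, whereas in morulae it was higher than in 4-cell embryos, at 38 TPM for cKO fathers and 35.5 TPM for control fathers.

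**Figure D5:**
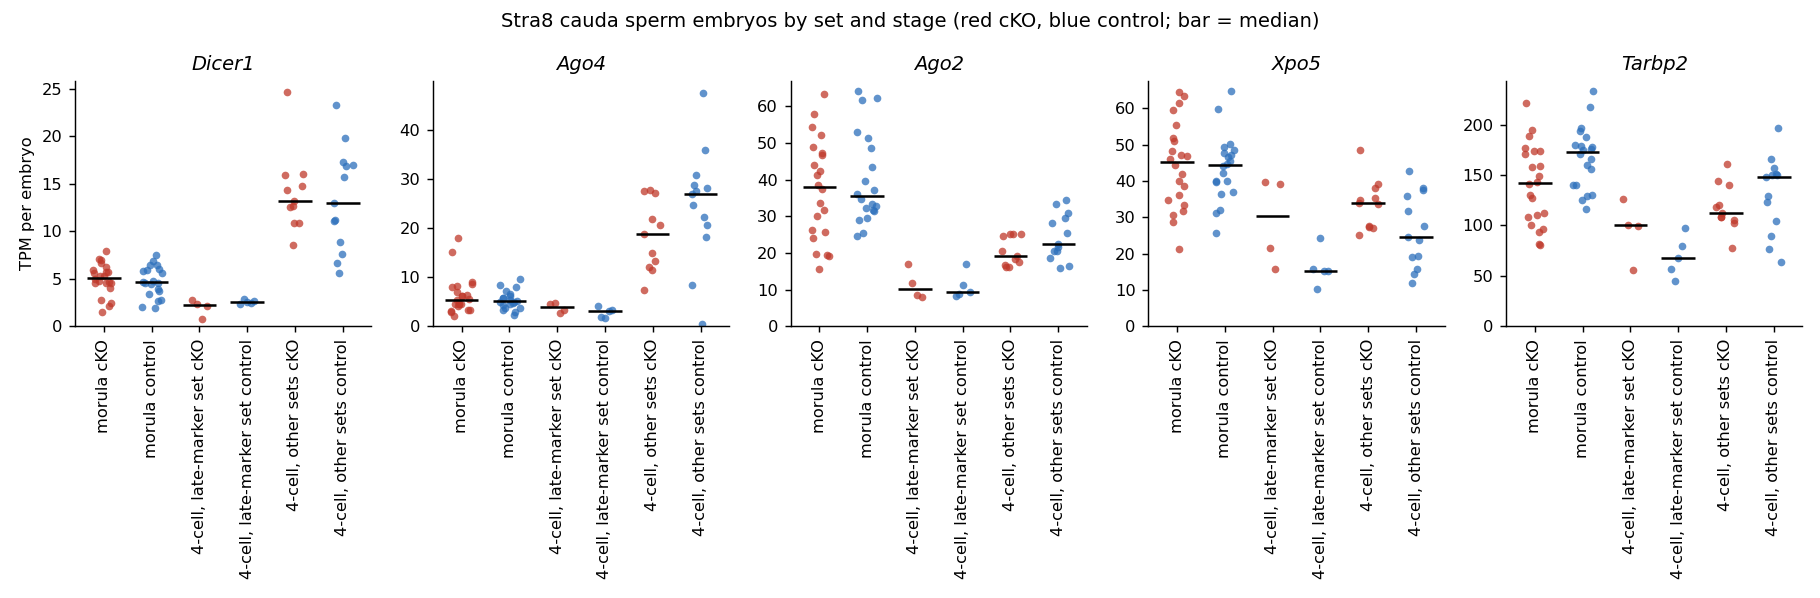
TPM of Dicer1, Ago4, Ago2, Xpo5 and Tarbp2 in single Stra8 cauda sperm embryos, with morulae at the left, 4-cell embryos of the late-marker set in the middle and the other 4-cell embryos at the right, cKO in red and control in blue, medians as bars. In the late-marker set Dicer1 and Ago4 are at or below the level of morulae, and Ago2 is below both other kinds of embryo in its median.

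With all embryos, Dicer1 changed by -0.73 (SE 0.27, limma adjusted p = 0.0260) in cKO and by -0.76 (SE 0.25, limma adjusted p = 0.0121) in control embryos of Stra8 cauda sperm, and Ago4 by -0.92 (SE 0.27) and -1.08 (SE 0.36). Without the late-marker set, Dicer1 changed by -1.35 and -1.29 and Ago4 by -1.44 and -1.76. Then 6 of the 10 genes were called in cKO and 8 in control embryos, and Drosha was among them in both. With all embryos 5 and 7 of the 10 were called, beside 42.2% and 45% of all genes. The share of all genes called without the set is not given here, so that the counts cannot be set against it. Ago2 changed by 0.98 in both genotypes with all embryos (SE 0.18 in cKO, 0.17 in control), and by 0.76 and 0.67 without the set. Between cKO and control 4-cell embryos of this source, 0 genes of the 10 were called by limma with or without the set, and Dgcr8 changed by 0.24 and 0.19.

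Other genes of the pathway were counted by list at the stage change, where 61%, 45% and 70.6% of all genes were called in testis sperm, Stra8 cauda sperm and Defb41 controls, with all-gene medians of -0.02, 0.11 and 0.46. Of the 7 export and loading genes, the GTPase, chaperone and translin genes that serve Xpo5 and Argonaute, 6, 6 and 5 rose in testis sperm, Stra8 cauda sperm and Defb41 controls and none fell, with median changes of 0.61, 0.58 and 0.76. In Defb41 controls that share is near that of all genes. In embryos of cKO fathers 4 of the 7 rose for testis sperm and 4 for Stra8 cauda sperm, where 55.7% and 42.2% of all genes were called. For cKO + control RNA and for cKO + miRNA 5 of the 7 rose, where 64.1% and 58.0% of all genes were called. The HSP90 gene Hsp90aa1 was at medians of 2901 TPM in morulae and 803 TPM in 4-cell embryos of testis sperm controls (1.94, SE 0.13, limma adjusted p = 4.21e-19). The constitutive HSP70 gene Hspa8 was at 9862 and 5992 TPM (0.68, SE 0.10, limma adjusted p = 1.74e-08).

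Silencing effectors, the proteins that act with Argonaute on target mRNAs, did not move one way, and the share called was below that of all genes in each control comparison. In the 3 control comparisons 1, 2 and 4 of 12 or 13 rose and 4, 3 and 1 fell, with medians of -0.31, -0.20 and 0.17. Mov10 fell in testis sperm controls by 1.18 (15.9 against 35.1 TPM) and in Stra8 cauda sperm controls by 1.0 (16.7 against 36.4 TPM). The decapping helicase gene Ddx6 rose by 0.66 in Stra8 cauda sperm controls and by 1.26 in Defb41 controls. Of 8 nuclear cofactors, 0, 1 and 4 rose and 3, 1 and 2 fell, with medians of -0.14, 0.06 and 0.22.

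Of 8 or 9 tested genes of miRNA turnover and let-7 control, 2, 3 and 5 rose and 1, 0 and 1 fell, with medians of -0.05, 0.19 and 0.64. Lin28a, which blocks the maturation of let-7, rose in every stage comparison. Its change was 1.0 in testis sperm controls (29.6 against 19.7 TPM), 2.28 in Stra8 cauda sperm controls (46.7 against 10.1 TPM) and 1.62 in Defb41 controls (25.5 against 9.95 TPM). Trim71, a let-7 target that encodes an RNA-binding ubiquitin ligase, fell by 1.20 in testis sperm controls and by 1.52 in Defb41 controls. Of 8 germline small RNA genes, 3 were tested, and Mael rose by 2.30, 2.34 and 2.01 and Ddx4 by 1.28, 1.72 and 1.99 in the same 3 control comparisons.

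For Dgcr8, Drosha, Dicer1 and Ago2, the genes of the most similar pattern were sought by Pearson r of mean log2(TPM + 1) over the 22 groups, among 12016 genes with a mean of at least 5 TPM in some group. Those nearest to Dgcr8 were Ipo5, Ccnt2 and Parg (r = 0.99 each). Elmod2 (0.95), Rbl1 and Zbtb6 (0.93 each) were nearest to Drosha, and Adnp (0.95), Ube2d2a (0.94) and Fem1b (0.92) to Dicer1. Nol11, Wdr3 (1.0 each) and Dmgdh (0.99) were nearest to Ago2. The points share tables and kits, 8 being tissue and 14 embryos, so that a gene that only differs between tissue and embryos scores high.

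In GRCm38.p6 the genes lie as follows. Dgcr8 spans chr16:18253948-18289251 on the minus strand and overlaps Trmt2a on the plus strand, Tarbp2 spans chr15:102516077-102523676 on the plus strand and overlaps Map3k12 on the minus strand, and Ago2 spans chr15:73101625-73184947. Dicer1 spans chr12:104687740-104751968, Xpo5 chr17:46202811-46243598, Drosha chr15:12824804-12935291 and Prkra chr2:76609215-76648220. Ago3, Ago1 and Ago4 are neighbours on chromosome 4, at 126326994-126431670, 126435012-126468707 and 126489487-126533586. The embryo kit is not stated to keep strand, so that in embryos reads of Dgcr8 and Trmt2a, or of Tarbp2 and Map3k12, cannot be told apart where they overlap.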

How the data were processed

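The 10 genes and the lists of related genes were chosen with earlier results of these data known. The authors deposited TPM per gene for epididymal tissue (made with the Illumina Stranded mRNA kit, per the labels' protocols) and for single embryos (RNA-Clean XP beads and Nextera XT, per the labels' protocols). The genome was mm10, per the labels, and RSEM was used, per the submitters' processing notes. The TPM of every library sum to the same total, so that depth cannot be recovered and no counting interval can be given. The deposited tables give 1 transcript model for 8 of the 10 genes and 2 for Drosha and Tarbp2. In 1 embryo table, 1 column matched no sample and was not used.

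Libraries were grouped by their labels. Comparisons were made within a table with limma 3.58.1 in R 4.3.3, with trend and robust estimation on log2(TPM + 1), using only the groups compared. Tissue genes needed 1 TPM in at least the number of libraries of the smaller group, and embryo genes needed 1 TPM in 0.25 of the embryos. P-values were adjusted by the Benjamini-Hochberg method over all genes tested, and an adjusted p under 0.05 was a call. The code was checked on simulated data.

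All 10 genes are described, with test values for each gene called in tissue and for Dgcr8 in the tissue and Stra8 embryo comparisons of genotype. Calls between stages are given with test values in some comparisons only. Others are given where they were nearest to a call or did not overlap between groups, and were chosen after their values were seen. The share of all genes that did not overlap between groups was not counted. Up to 3 called genes per list and comparison, those of the largest change, could be named. The stage comparisons in embryos of cKO fathers and the interactions were added after the data were seen.

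Alternatives were a pseudocount of 0.1, no filter, median-ratio scaling, limma without trend and robust estimation, a fit over all groups of a table, a replicate or set block, leaving out each tissue library, leaving out embryos of few detected genes (more than 3 median absolute deviations below the median), and, chosen after seeing the data, leaving out the late-marker set, Stra8 caput control library 2 (in the interaction) or near-identical embryos (r of at least 0.98). Same-numbered libraries deviated together in Stra8 caput (r of 0.22 to 0.47), Stra8 cauda (0.34 to 0.49) and the 2 segments labelled Defb41 control (0.23 to 0.45), and same-numbered sets in Stra8 cauda sperm 4-cell embryos (0.51 to 0.96), Stra8 cauda sperm morulae (0.11 to 0.35) and cKO + control RNA and control morulae (0.10 to 0.18). Between different numbers r reached 0.77 in Stra8 cauda sperm 4-cell embryos, 0.40 in the libraries labelled Defb41 control and 0.24 in Stra8 cauda sperm morulae. These lie above the lowest r of the same number, so that the pairing is less firm there. In Stra8 caput, Stra8 cauda and cKO + control RNA and control morulae r between different numbers reached 0.06, 0.21 and 0.10. The pairing comes from the numbers in the titles and column names. Upstream windows are the 250 bases before a gene's outermost start in RefSeq (GRCm38.p6), and 9 of the 10 genes had an entry in its promoter table.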

Additional observations from a re-analysis of the deposited data

Results flagged for a closer look

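Among 60 sets of values (a tissue gene in a group of 4 libraries), 2 held a library far from the other 3, where chance gives about 1 in 20. Ago4 was at 0.65 TPM in replicate 4 of the libraries labelled Defb41 caput control, against 0.32, 0.33 and 0.35 TPM in the others. Without this library, 6 of the 7 tested genes in place of 3 were called between the libraries labelled caput cKO and control. With all libraries 50.4% of all genes were called there, and the share without this library is not given here. Prkra was at 15.64 TPM in replicate 3 of Stra8 cauda cKO, against 11.02, 11.11 and 11.46 TPM in the others, and its call between cKO caput and cauda was kept without that library.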

How the results depend on the processing

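In all 10 embryo comparisons of genotype or injection, 0 of the 10 genes were called by limma under every alternative, and in the 2 Stra8 tissue comparisons of genotype 0 of 7. Stage counts stayed within 1.5 times. Some tissue counts moved. Between the libraries labelled Defb41 caput cKO and control, 3 genes became 1 to 6 when 1 library was left out. Between those labelled Defb41 cauda, 0 became 1 with median-ratio scaling (Dgcr8, 0.87, adjusted p = 0.0457), 2 in the fit over all groups, and 0 to 1 without 1 library. For Stra8 control caput over cauda, 1 became 2 with median-ratio scaling, 2 over all groups, 2 with the replicate block and 1 to 2 without 1 library, Xpo5 being called each time. For Stra8 cKO caput over cauda, 1 became 2 with median-ratio scaling, 2 without trend and robust estimation, and 1 to 2 without 1 library. For the libraries labelled Defb41 control, 0 became 3 over all groups, 1 with the replicate block and 0 to 2 without 1 library. The replicate block changed no other call of these genes where the numbers pair the libraries, and for the libraries labelled Defb41 caput, whose numbers do not, it added Drosha. The stage calls of Dicer1 (adjusted p = 0.0566, pseudocount 0.1) and Prkra (0.0517, no filter) in Stra8 cauda sperm cKO embryos, and of Tarbp2 in cKO + control RNA embryos (0.0507 to 0.0679 in 3 alternatives), were near the threshold. No direction reversed. The causes were not tested.

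Counts over all genes moved more. Stra8 caput cKO over control gave 97 genes, 24 to 55 under 4 alternatives, 322 with the block and 1 to 193 without 1 library. Stra8 cauda gave 0, 3 over all groups and 295 with the block. Defb41 cauda by label gave 3099 and 4701 over all groups. The libraries labelled Defb41 control gave 1574, 890 with median-ratio scaling, 3881 over all groups and 2474 with the block, and those labelled cKO 33, 4 to 17 in 4 alternatives and 60 with the block. In embryos, testis sperm 4-cell gave 2 (1 to 15), testis sperm morulae 22 (12 to 67), cKO + control RNA morulae 43 (14 to 87), cKO + miRNA over control 11 (0 to 162) and over cKO + control RNA 9 (0 to 38), and the 4-cell comparisons of cKO + control RNA over control and of the injected groups 0 and up to 3 and 31. Median-ratio scaling moved the share of called genes that were higher, as labelled: 47% in place of 64.5% for Defb41 caput, 47.3% for 27.9% for Defb41 cauda, 50.2% for 74.6% for Stra8 cKO segments, 60.8% for 22.1% for Defb41 control segments and 41.7% for 68.2% for testis sperm morulae. Depth is unknown, and the tissue levels of Ago2, Ago3 and Ago4 are too low to show a difference.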
